A study of Mus musculus with 50 samples.

Results

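Brown fat thermogenic genes were followed through mouse thyroid libraries, which also held transcripts of fat and muscle. The 9 genes Ucp1, Adrb3, Otop1, Cidea, Elovl3, Ppargc1a, Cox7a1, Cox8b and Kcnk3 were taken from the 52636 genes of the count table by matching Ensembl IDs to symbols, and all 9 were found. They were chosen by their levels in these data, mainly those under triple receptor blockade against ligand blockade at 7 days. For these 9 genes that comparison is a description. Adjusted p-values in it are printed for other genes only, and nothing is read from how many of the 9 were called. The 50 libraries came from adult male C57BL/6 mice, 10 to 14 weeks old per the sample protocol, and form 10 groups of 5. Each mouse had received a single intraperitoneal antibody dose. The control was an anti-ragweed isotype antibody (RW, 40 mg/kg). Ligand blockade was anti-Jag1 with anti-Jag2 (aJ1aJ2, 20 mg/kg each), and receptor blockade was anti-Notch1 with anti-Notch2 (aN1aN2, 5 and 10 mg/kg) or the same pair with anti-Notch3 at 20 mg/kg (aN1aN2aN3). RW, aJ1aJ2 and aN1aN2 were sampled at 15 hours and at 5 days. The 7-day libraries fall into 2 sets by their series of sample IDs. The first compares aJ1aJ2 with RW, and the second compares aN1aN2aN3 with aJ1aJ2, with no RW group analysed here. The study description also mentions thyroid hormone injections, and no label says which mice had them.

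Brown and beige adipocytes burn fat to make heat. Noradrenaline from sympathetic nerves acts on the beta3-adrenergic receptor (Adrb3), cAMP rises, lipid is broken down, and the uncoupling protein Ucp1 lets protons leak back across the inner mitochondrial membrane so that respiration gives heat instead of ATP. Ppargc1a encodes a coactivator that drives mitochondrial gene transcription in many tissues, muscle and brain included. Cidea coats lipid droplets, Elovl3 elongates fatty acids, Otop1 is a proton channel and Kcnk3 is a potassium channel. Cox7a1 and Cox8b encode isoforms of cytochrome c oxidase subunits that are found in heart, skeletal muscle and brown fat, in place of the widespread isoforms Cox7a2 and Cox8a. White adipocytes share Adipoq, Plin1, Fabp4 and Lep with brown ones, so these serve here as a measure of how much fat a library holds.

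Library totals ranged from 15.3 M to 52.8 M counts. Levels are CPM, counts per 1e6 counts of a library, with library sizes scaled by the trimmed mean of M values (TMM) over all libraries. Thyroglobulin (Tg), the defining thyroid transcript, took 1.15% to 6.5% of the counts of a library in the second 7-day set, below most libraries of the other groups, where the mean of each group was between 21.5% and 30.4%. RW replicate 3 at 5 days also stood apart, with Tg at 0.450% of counts, the muscle creatine kinase Ckm at 18811 CPM and 10.6% of counts from mitochondrially encoded genes. Nothing in the labels says whether the 5 libraries of a group came from separate animals, so p-values measure the spread between these samples only. In whole tissue, fewer cells of a type and less RNA per cell cannot be told apart.

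RefSeq promoter sequence (build GRCm38.p6) was on hand for 5 of the 9 genes: Ucp1, Otop1, Ppargc1a, Cox7a1 and Cox8b. The 250 bases before the start site are printed for 4 of them, in the direction of transcription. Ucp1 and Ppargc1a are shown because they parted in the second 7-day set. Cox7a1 and Cox8b are shown because the level of each varied with Ckm within groups. Their windows are chr8:83290098-83290347 (plus strand), chr5:51567726-51567975 (minus), chr7:30183921-30184170 (plus) and chr7:140900447-140900696 (minus). Capitals mark matches, on either strand, to 5 short motifs.
Ucp1: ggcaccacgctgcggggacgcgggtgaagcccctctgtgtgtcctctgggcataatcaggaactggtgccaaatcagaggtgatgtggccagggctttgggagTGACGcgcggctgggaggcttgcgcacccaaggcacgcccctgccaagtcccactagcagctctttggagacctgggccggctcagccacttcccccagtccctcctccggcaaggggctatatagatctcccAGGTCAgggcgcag
Ppargc1a: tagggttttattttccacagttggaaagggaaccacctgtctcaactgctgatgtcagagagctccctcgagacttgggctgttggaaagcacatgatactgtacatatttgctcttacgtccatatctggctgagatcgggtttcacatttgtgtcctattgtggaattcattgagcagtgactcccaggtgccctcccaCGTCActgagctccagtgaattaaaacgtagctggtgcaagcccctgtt
Cox7a1: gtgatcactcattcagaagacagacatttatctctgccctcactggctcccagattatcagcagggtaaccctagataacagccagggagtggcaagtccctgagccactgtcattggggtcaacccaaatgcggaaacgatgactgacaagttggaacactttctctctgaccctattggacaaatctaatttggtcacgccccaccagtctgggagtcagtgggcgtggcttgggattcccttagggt
Cox8b: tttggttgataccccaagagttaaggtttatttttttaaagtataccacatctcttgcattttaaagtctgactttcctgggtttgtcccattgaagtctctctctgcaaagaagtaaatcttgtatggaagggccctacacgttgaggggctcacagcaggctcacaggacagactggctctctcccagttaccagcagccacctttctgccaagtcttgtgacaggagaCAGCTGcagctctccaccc
The motifs searched were the cAMP response element half-site TGACG, the nuclear receptor half-site AGGTCA, the ETS core CGGAAG, the TATA box TATAAA and the E-box CAGCTG. Ucp1 held TGACG at position -147 and AGGTCA at -14, counted from the first transcribed base. Ppargc1a held the half-site in its reverse form at -49, Cox8b held the E-box at -19, and the windows of Cox7a1 and Otop1 held none. No 2 matches overlapped. Of 32851 mouse promoter windows of this length, 17.8% held TGACG, 14.0% AGGTCA, 13.6% CGGAAG, 12.4% TATAAA and 13.0% CAGCTG, so each match is a common one. The Ucp1 window was 64.8% G and C, against a median of 52.4% over all windows, and the Ppargc1a window 48.0%.

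In the second 7-day set, 7 of the 9 genes had lower means under aN1aN2aN3 than under aJ1aJ2, and the other two, Ppargc1a and Kcnk3, were near level. The beta3-adrenergic receptor showed the cleanest separation. Adrb3 measured 11.9, 14.5, 11.7, 34.9 and 15.2 CPM in the 5 aJ1aJ2 libraries and 0.782, 0.450, 0.675, 1.13 and 1.22 CPM in the 5 aN1aN2aN3 libraries. Every aN1aN2aN3 library lay below every aJ1aJ2 library, and the fitted difference was -4.40 ± 0.40 on the log2 scale (SE, edgeR), 21.1-fold lower. The 5 aN1aN2aN3 libraries held 128 Adrb3 counts between them. Adrb3 overlaps a gene on the other strand, Gm45470, and since the use of strand in counting is not given, part of its counts could belong to that gene.

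Ucp1, the heat-making uncoupler, was split within the aN1aN2aN3 group. Its levels were 392, 928, 233, 996 and 244 CPM under aJ1aJ2, and 106, 189, 1.03, 7.5 and 5.55 CPM under aN1aN2aN3. Replicates 1 and 2 came nearest to the lowest aJ1aJ2 libraries, while the other three were below every other library of the study. The groups did not overlap, and the fitted difference was -3.20 ± 1.28 (log2, SE), a 9.18-fold lower mean. The proton channel Otop1 had the same shape, with 10.2, 16.8, 6.64, 19.6 and 19.4 CPM against 0.945, 2.91, 0.161, 0.427 and 0.222 CPM. Its fitted difference was -3.99 ± 0.75, again without overlap.

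Of the genes of lipid handling, the fatty acid elongase Elovl3 measured 10.4, 37.4, 6.88, 60.4 and 8.81 CPM under aJ1aJ2 and 5.09, 4.5, 0.193, 0.640 and 0.777 CPM under aN1aN2aN3. The groups did not overlap, and replicates 1 and 2 of aN1aN2aN3 were again the highest of their group (log2 difference -3.49 ± 1.01). Elovl3 overlaps Pitx3 on the other strand and carries the same reservation as Adrb3. The droplet protein Cidea measured 148, 285, 116, 216 and 81.3 CPM against 91.7, 20.4, 18.6, 27.2 and 41.4 CPM. Here the groups overlapped through aN1aN2aN3 replicate 1, and the difference was smaller at -2.11 ± 0.50.

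The tissue-restricted oxidase subunits were lower as well, with overlap. Cox8b measured 228, 326, 306, 866 and 1188 CPM under aJ1aJ2 and 296, 57.2, 67.5, 30.8 and 22.6 CPM under aN1aN2aN3 (log2 difference -2.64 ± 0.80). Cox7a1 measured 86.4, 146, 129, 398 and 968 CPM against 124, 19.7, 27.8, 16.6 and 9.70 CPM (log2 difference -3.15 ± 0.94). Both were highest in aJ1aJ2 replicates 4 and 5, the libraries with the most muscle transcripts of that group, and without these 2 libraries the differences were -1.59 for Cox8b and -1.6 for Cox7a1.

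Ppargc1a and Kcnk3 showed no such drop. Ppargc1a measured 76.3, 70.1, 88.4, 85 and 51.0 CPM under aJ1aJ2 and 76.6, 82.7, 70.4, 97.6 and 62.0 CPM under aN1aN2aN3, a log2 difference of 0.04 ± 0.18. Kcnk3 measured 15.4, 28.6, 21.6, 28.4 and 37.2 CPM against 25.9, 28.6, 34.0, 30.5 and 39.2 CPM, a difference of 0.24 ± 0.22. The ranges of the 2 groups overlapped for both genes, and the Kcnk3 gene overlaps Gm9899 on the other strand. By the edgeR threshold used elsewhere (adjusted p below 0.05), 6 of the 9 were called lower in this contrast, all but Ucp1, Ppargc1a and Kcnk3, and DESeq2 and limma on FPKM each called 7, Ucp1 included. Over all 18450 genes tested, 19.6% were called in either direction and 10.4% were called lower. Ranges without overlap on the lower side were found for 4 of 9, against 6.66% of all genes. Since this contrast chose the genes, nothing is read from these counts.

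**Figure D1:**
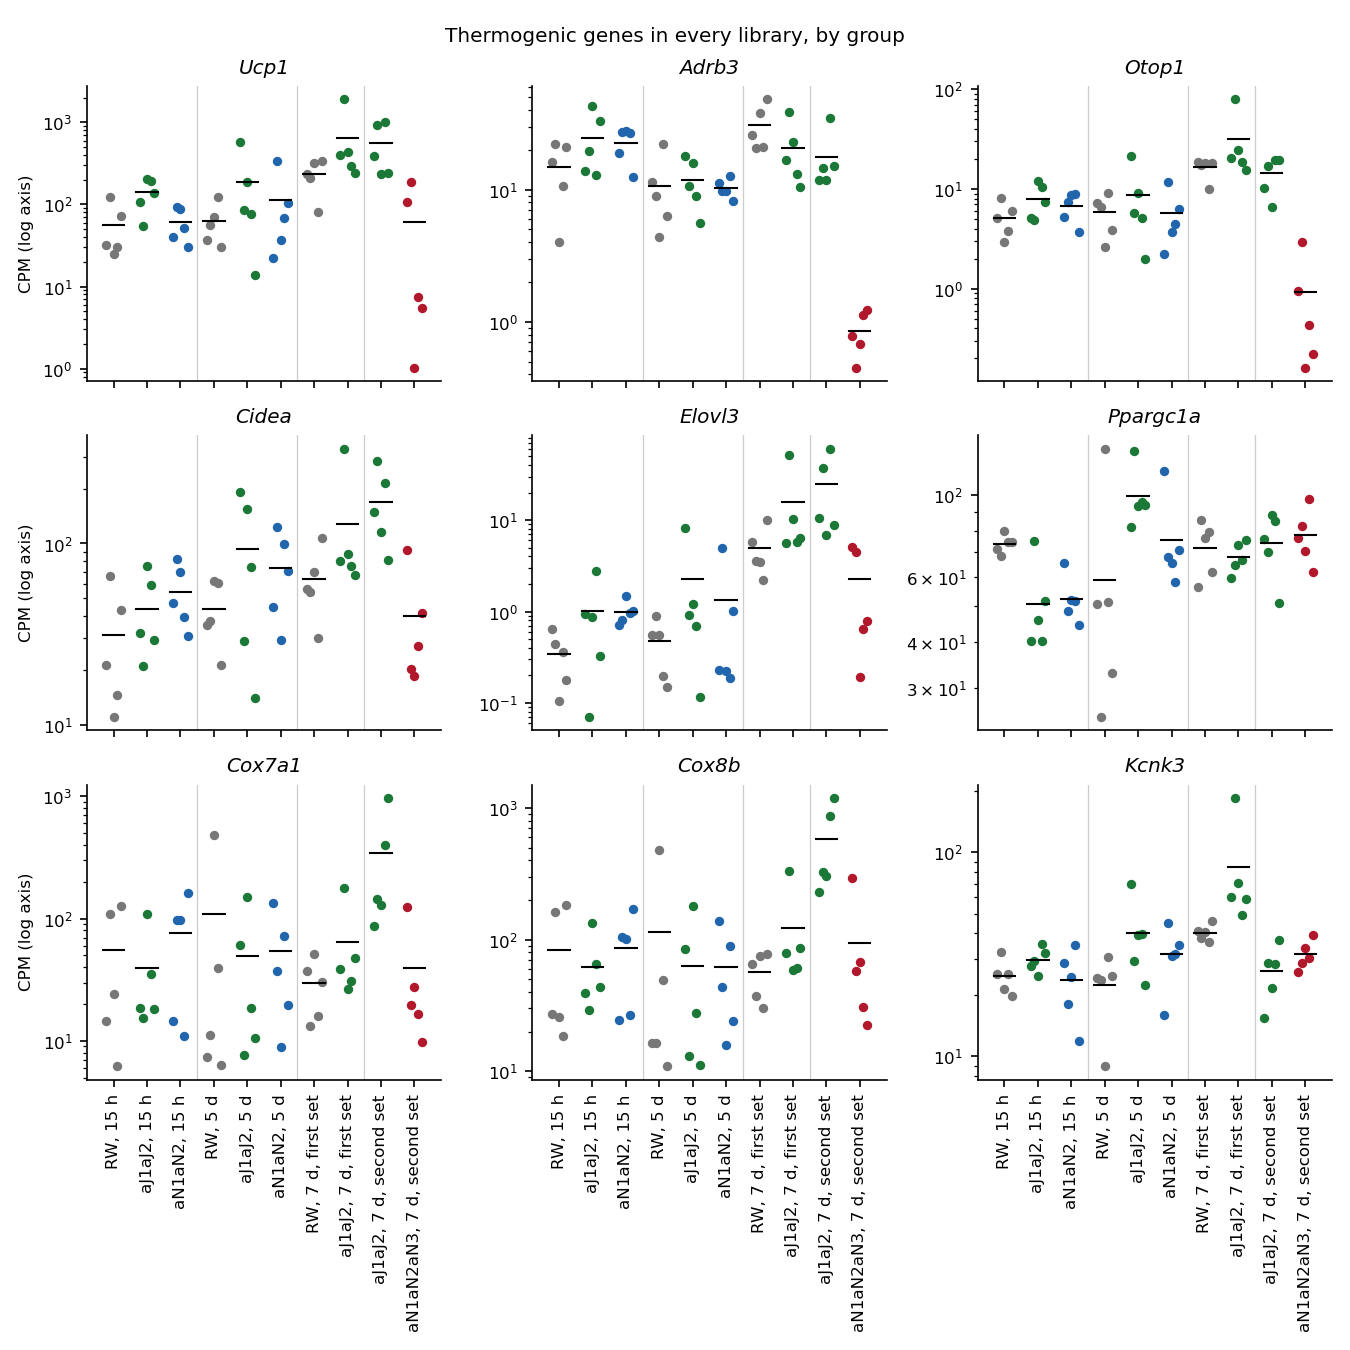
CPM (log axis) of each of the 9 genes in every library, with points for libraries and a bar for the mean of 5; columns are the 10 groups and thin vertical lines part the time points and sets. Adrb3, Ucp1, Otop1 and Elovl3 under aN1aN2aN3 (red) lie below all 5 aJ1aJ2 libraries of the second set, while Ppargc1a and Kcnk3 do not.

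Fat genes that brown and white adipocytes share were lower as well. Over all genes tested 10.4% were called lower, the background for the list counts that follow. Of 17 general adipocyte genes, 10 fell under aN1aN2aN3 and 0 rose (edgeR, adjusted p below 0.05), with a median log2 difference of -1.61, against -0.07 over all genes tested. The median over the 9 thermogenic genes was -3.15, and since they were chosen on this contrast the 2 medians cannot be compared. Adipoq, the adipocyte hormone adiponectin, measured 281, 239, 289, 246 and 205 CPM under aJ1aJ2 and 86.3, 50.9, 24.1, 76.1 and 63.8 CPM under aN1aN2aN3 (log2 fold change -2.09 ± 0.30, adjusted p = 0.00166). The groups were clear of each other. The desaturase Scd1 (-3.68), leptin (Lep, -3.65), the triglyceride enzyme Dgat2 (-2.61) and the resistin gene Retn (-2.47) were the 4 of the list that fell most. The fatty acid carrier Fabp4 fell by 2.28 on the log2 scale. Plin1, which coats lipid droplets, had a log2 fold change of -2.55 but missed the threshold (adjusted p = 0.0773). The lipases Lipe (-0.30) and Pnpla2 (0.83) and Plin4 (-0.05) did not pass the test.

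Genes related to thermogenesis outside the 9 were mostly lower, at 13 of the 14 tested in sign. The list held 18 genes; 5 fell and 1 rose, with a median of -1.07. Nrg4, a secreted factor of brown fat, fell by 2.02 on the log2 scale. Dio2, which activates thyroid hormone in brown fat, fell by 1.90, with 11.8, 13.9, 11.2, 23.5 and 7.66 CPM against 6.75, 6.79, 0.482, 2.01 and 2.48 CPM. Acot11, an acyl-CoA thioesterase, fell by 1.89, and Ebf2, a brown fat transcription factor, by 1.09. Prdm16, a regulator of brown fat identity, went the other way (0.83 ± 0.21, adjusted p = 0.0188), from 8.48 to 16.4 CPM under aJ1aJ2 to between 15.7 and 25.6 CPM. Dio2, Prdm16, Ebf2, Nrg4 and Acot11 overlap genes on the other strand, as do Plin4, Lipe, Cox6c, Cox6a2, Ckm and Tg among the genes named here. Zic1, a marker of classical brown fat, was at 0 counts in 2 aJ1aJ2 libraries and 1 aN1aN2aN3 library and reached at most 1.63 CPM, too low to test.

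Of 11 genes of adrenergic and cAMP signalling and of lipid breakdown, inhibitors included, 6 fell and 0 rose (median -0.83). The kinase subunit Prkar2b fell most, by 3.10 on the log2 scale, followed by the lipase inhibitor G0s2 (-1.82), the receptor Adrb1 (-1.60) and the phosphodiesterase Pde3b (-0.90). Among 12 other cytochrome c oxidase genes 7 fell and 0 rose, with a median of -0.96. Cox7b (-2.10), Cox6c (-1.83), Cox7a2 (-1.47) and Cox6b1 (-1.29) led them. Cox8a (-0.63, adjusted p = 0.0671) and the muscle isoform Cox6a2 (-1.20, adjusted p = 0.491) did not pass.

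**Figure D2:**
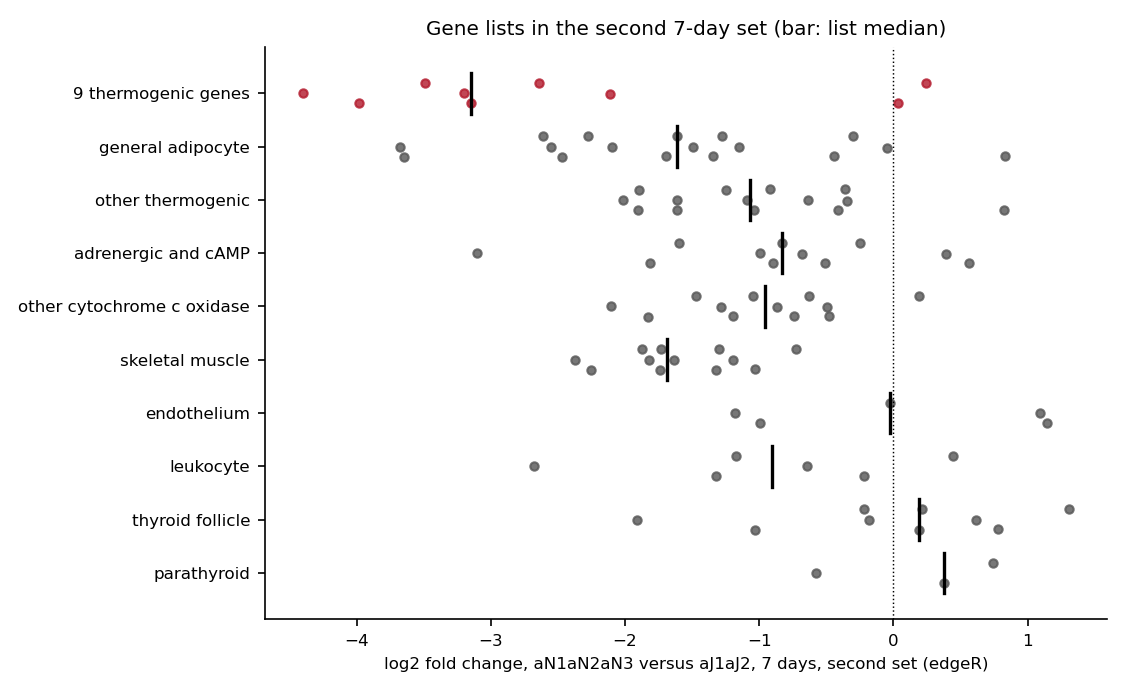
Log2 fold change of each gene, aN1aN2aN3 against aJ1aJ2 at 7 days in the second set, by gene list; a point is a gene and the bar is the list's median. The 9 thermogenic genes (red), chosen on this contrast, have their median at -3.15, the general adipocyte list at -1.61 and the muscle list at -1.68.

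Several other tissue signals differed between these 2 groups, and their part in the lower thermogenic levels was not tested beyond the values given here. The summed CPM of the general adipocyte list was 5518 to 8566 under aJ1aJ2 and 1256 to 3053 under aN1aN2aN3, with no overlap. The 13 muscle genes summed to between 340 and 137134 CPM against 4592 to 28980 CPM, and of the 12 tested none was called (median -1.68). The 9 thyroid follicle genes were higher in sum, at 27413 to 48184 against 11889 to 24693 CPM, as Tg (1.31, adjusted p = 0.0137) and Pax8 (0.78) rose, while the iodide transporter Slc5a5 fell (-1.91), 3 of 9 called in all. Leukocyte genes summed to 43.6 to 109 CPM against 24.4 to 54.8 CPM, endothelial genes to 202 to 286 against 189 to 277 CPM, and parathyroid genes to 81.8 to 54605 against 7361 to 33393 CPM. Among endothelial genes Pecam1 (1.15) and Cdh5 (1.09) rose and Emcn (-1.18) and Kdr (-0.99) fell, of 5. The B-cell gene Ms4a1 (-2.68) and the macrophage gene Adgre1 (-1.33) fell, of 6 leukocyte genes tested, and 0 of 3 parathyroid genes passed. Over all genes tested 19.6% were called in either direction. Counts of 3 of 9 or 2 of 6 are thus no result about those lists. Mitochondrially encoded genes took 2.02% to 3.57% of counts under aJ1aJ2 and 0.704% to 1.73% under aN1aN2aN3. With the muscle sum as a covariate the same 6 genes were called, in the contrast that chose them, so nothing is read from that count. With the adipocyte sum as a covariate 0 were called and Ucp1 turned to 3.13, but that sum does not overlap between the groups, so fat content and treatment cannot be told apart in that fit.

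Dividing by Adipoq set fat state against fat content within each library. Per Adipoq count, Ucp1 measured 0.48, 1.96, -0.31, 2.02 and 0.26 (log2) under aJ1aJ2 and 0.29, 1.89, -4.53, -3.34 and -3.52 under aN1aN2aN3. Replicates 1 and 2 of aN1aN2aN3 thus lay inside the aJ1aJ2 range, and the other three far below it. Adrb3 per Adipoq was -4.56, -4.04, -4.62, -2.82 and -3.75 against -6.76, -6.77, -5.13, -6.06 and -5.69. It was the one gene of the 9 that stayed lower without overlap on this scale, by 2.12 between the means, and replicates 1 and 2 had its lowest values. Otop1 (difference -2.42) and Elovl3 (-1.65) were lower with overlap, Cidea was level (-0.04), and Cox7a1 (-0.98) and Cox8b (-0.79) were lower in mean with overlap. Ppargc1a (2.26) and Kcnk3 (2.49) were higher per Adipoq without overlap. In CPM these 2 genes were near level (log2 differences 0.04 and 0.24), while Adipoq was lower under aN1aN2aN3. Their higher ratios thus follow the lower Adipoq, and no fat state is read from them.

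**Figure D3:**
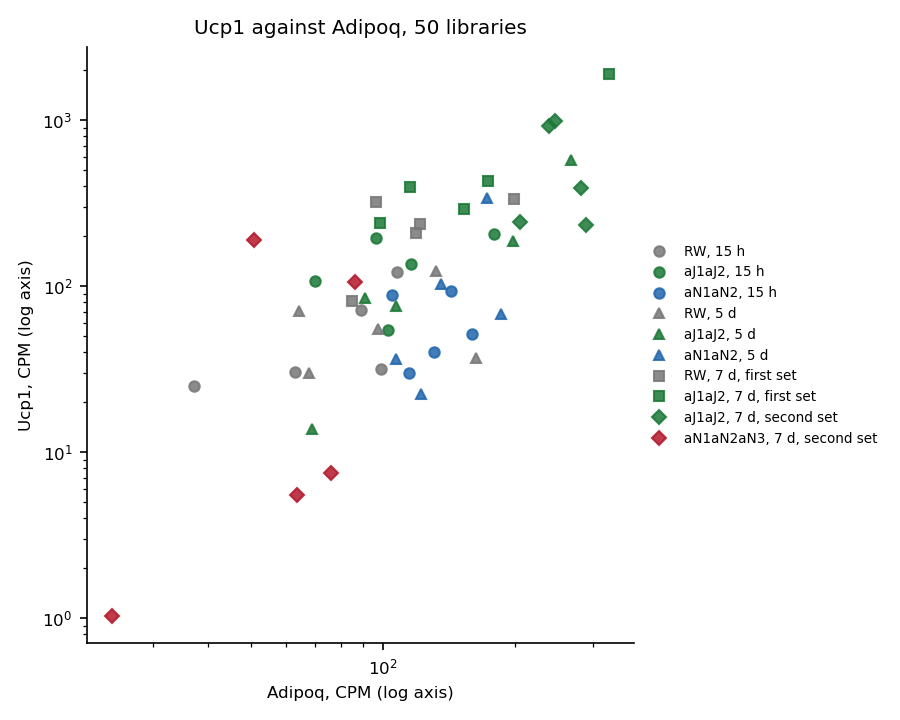
Ucp1 against Adipoq in CPM, both on log axes, 1 point per library; colours are treatments and shapes are times and sets. Of the 5 aN1aN2aN3 libraries (red), 3 lie at 1.03 to 7.5 CPM of Ucp1, lower than any other library, and 2 lie among the other groups.

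Outside that contrast the 9 genes were tested, but their choice also drew on levels over all groups. These tests are thus not fully independent of the choice. None of the 9 was called in any of the 7 remaining comparisons (edgeR quasi-likelihood test, Benjamini-Hochberg adjustment over all genes, threshold 0.05), nor by DESeq2. For aJ1aJ2 against RW, 0.573% of all genes were called at 15 hours, 0.179% at 5 days and 0% at 7 days in the first set. For aN1aN2 the background was 1.68% against RW and 0.130% against aJ1aJ2 at 15 hours, and 0% in both comparisons at 5 days. At an unadjusted p below 0.05 the members passing numbered 3 of 9 for aJ1aJ2 at 15 hours, 1 at 5 days and 3 at 7 days. For aN1aN2 they were 2 against RW and 1 against aJ1aJ2 at 15 hours, and 0 at 5 days. At that cut 1220 of 18513 genes passed for aJ1aJ2 against RW at 15 hours and 2167 of 18434 at 5 days. At 7 days 1968 of 16954 passed. For aN1aN2 at 15 hours 2674 passed against RW and 2321 against aJ1aJ2, and at 5 days 1848 and 778. Nothing is read from the unadjusted counts. With the adjusted shares so small among all genes, 0 of 9 is no result about these genes in particular.

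Ucp1 had a higher mean under ligand blockade than in controls at each time. At 15 hours it measured 31.6, 122, 25.0, 30.3 and 71.7 CPM in RW and 107, 54.8, 206, 195 and 136 CPM under aJ1aJ2 (log2 fold change 1.31 ± 0.50, adjusted p = 0.666 by edgeR). At 5 days it measured 36.9, 55.6, 70.7, 124 and 30.0 CPM against 576, 85.7, 188, 75.7 and 13.8 CPM (1.57 ± 0.88, adjusted p = 0.511). In the first 7-day set it measured 236, 209, 322, 81.1 and 337 CPM against 399, 1901, 432, 292 and 241 CPM (1.46 ± 0.60, adjusted p = 0.392). The ranges overlapped at every time, and 4, 4 and 5 of 5 treated libraries lay above the RW mean. Without aJ1aJ2 replicate 1 the 5-day value was 0.52, and without aJ1aJ2 replicate 2 the 7-day value was 0.52. The 3 comparisons share no library.

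Under aN1aN2 Ucp1 was closer to the control. It measured 40.2, 93.7, 88.4, 51.7 and 29.9 CPM at 15 hours, a log2 fold change of 0.11 ± 0.49 against RW (adjusted p = 0.956) and of -1.21 ± 0.49 against aJ1aJ2 (adjusted p = 0.339). At 5 days it measured 22.4, 339, 36.4, 68.0 and 103 CPM, 0.84 ± 0.86 against RW (adjusted p = 0.863) and -0.73 ± 0.86 against aJ1aJ2 (adjusted p = 1.00). The comparisons at 1 time share their control libraries. The aN1aN2 libraries at 15 hours carry sample IDs of the same series as the 5-day groups and not of the other 15-hour groups, so treatment and ID series cannot be told apart there.

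Elovl3 followed Ucp1 in direction at a far lower level. Its mean went from 0.344 ± 0.214 (SD, n = 5) in RW to 1.00 ± 1.07 CPM under aJ1aJ2 at 15 hours, from 0.470 ± 0.307 to 2.24 ± 3.40 CPM at 5 days, and from 5.00 ± 3.04 to 15.9 ± 20.0 CPM at 7 days. The log2 fold changes were 1.52 ± 0.69, 2.25 ± 1.14 and 1.66 ± 0.70 (adjusted p = 0.740, 0.471 and 0.405, edgeR). Each rested on 1 library: they were 0.66 without aJ1aJ2 replicate 4 at 15 hours, 0.63 without replicate 1 at 5 days and 0.47 without replicate 2 at 7 days. Under aN1aN2 at 15 hours Elovl3 measured 0.71 to 1.47 CPM against 0.106 to 0.642 CPM in RW, with no overlap (1.5 ± 0.69, adjusted p = 0.336). At 5 days the difference was 1.48 ± 1.12 (adjusted p = 0.803). Cidea under aJ1aJ2 differed from RW by 0.47 ± 0.49, 1.09 ± 0.61 and 1.02 ± 0.50 at 15 hours, 5 days and 7 days, with overlap each time and the smallest adjusted p at 0.457. The 5-day value was 0.64 without aJ1aJ2 replicate 1 and the 7-day value 0.28 without aJ1aJ2 replicate 2.

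Adrb3, the gene with the clearest separation in the second set, showed no steady direction elsewhere. Against RW, aJ1aJ2 gave 0.73 ± 0.44 at 15 hours, 0.15 ± 0.39 at 5 days and -0.59 ± 0.37 at 7 days (adjusted p = 0.910, 0.887 and 0.529, edgeR). In the first 7-day set it measured 26.0, 20.6, 38.1, 20.9 and 48.2 CPM in RW and 16.9, 39.0, 23.0, 13.1 and 10.5 CPM under aJ1aJ2, so that Adrb3 was lower in mean where Ucp1 was higher. Otop1 differed by 0.63 ± 0.34, 0.57 ± 0.58 and 0.93 ± 0.44, with adjusted p between 0.445 and 0.848, and the 7-day value was 0.24 without aJ1aJ2 replicate 2.

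Kcnk3 was the member nearest to a clean difference at 7 days. It measured 40.9, 37.8, 40.6, 36.3 and 45.9 CPM in RW and 60.3, 184, 70.9, 49.2 and 59.3 CPM under aJ1aJ2 in the first set. All treated libraries lay above all controls, a pattern seen in either direction for 3.59% of genes in that comparison, but the adjusted p was 0.249 (log2 fold change 1.07 ± 0.33, edgeR). Without aJ1aJ2 replicate 2 the value was 0.57. At 15 hours and 5 days its differences were 0.26 ± 0.23 and 0.83 ± 0.35 (adjusted p = 1.00 and 0.376).

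Ppargc1a, the coactivator, was lower in mean at 15 hours and higher at 5 days. At 15 hours it measured 71.3, 68.5, 79.9, 74.7 and 74.7 CPM in RW, 40.3, 74.9, 45.9, 40.2 and 51.7 CPM under aJ1aJ2, and 65.5, 48.5, 52.0, 51.6 and 44.6 CPM under aN1aN2. The aN1aN2 libraries lay below all RW libraries, as did 4 of 5 aJ1aJ2 libraries. Ranges without overlap in either direction were found for 5.21% of genes in the aN1aN2 comparison. The log2 fold changes were -0.55 ± 0.16 for aJ1aJ2 and -0.50 ± 0.16 for aN1aN2, with adjusted p = 0.307 and 0.15 (edgeR). Without aJ1aJ2 replicate 2 the first became -0.71 and passed the threshold (edgeR, adjusted p = 0.0370), in a fit that called 55 of 18863 genes. On FPKM, limma called the second (-0.65, adjusted p = 0.0114). That FPKM fit called 2249 of 18513 genes, 2116 of them lower, with a median of -0.18 over all genes. Its call is therefore no result about Ppargc1a in particular. At 5 days the mean was higher than RW under both antibodies, by 0.75 ± 0.38 and 0.36 ± 0.37 (adjusted p = 0.467 and 0.863). RW at 5 days measured 50.6, 25.1, 134, 51.4 and 33.0 CPM, and the high value belongs to the muscle-rich replicate 3. Without that library the aJ1aJ2 difference was 1.31 and passed (edgeR, adjusted p = 0.0346). The share of all genes called without it is not given here, so the call is not read as particular to Ppargc1a. With the muscle sum as a covariate and all libraries kept, 926 of 18434 genes were called in that comparison, against 33 in the main fit. At 7 days it was -0.08 ± 0.13 (adjusted p = 0.793).

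Cox7a1 and Cox8b had differences of opposite sign at different times. Under aJ1aJ2 they differed from RW by -0.50 ± 0.91 and -0.42 ± 0.74 at 15 hours, by -1.15 ± 1.24 and -0.85 ± 1.11 at 5 days, and by 1.11 ± 0.57 and 1.11 ± 0.51 at 7 days (adjusted p between 0.437 and 1.00, edgeR). The 5-day values rest on RW replicate 3, where Cox7a1 measured 483 CPM against 6.36 to 39.7 CPM in the other 4 RW libraries, and without it the differences turned to 1.61 and 1.45. At 7 days they were 0.27 and 0.31 without aJ1aJ2 replicate 2. Muscle genes had the same sign as the pair at each time, with medians of -0.56, -1.21 and 1.43 for the 13 muscle genes, none of them called.

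**Figure D4:**
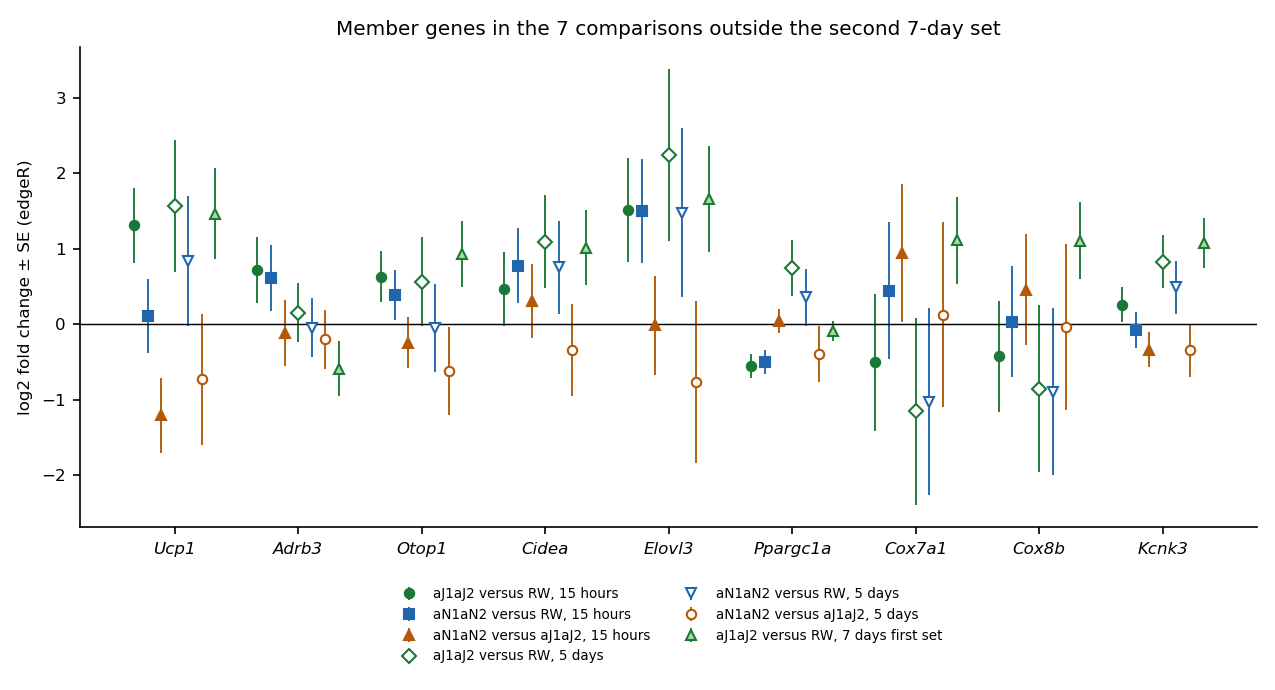
Log2 fold change with its SE (edgeR) for each of the 9 genes in the 7 comparisons outside the second 7-day set. Green is aJ1aJ2 against RW, blue aN1aN2 against RW and orange aN1aN2 against aJ1aJ2. Ucp1 and Elovl3 lie above 0 in every comparison with RW, Ucp1 for aN1aN2 at 15 hours and at 5 days by less than its SE, and none of the 63 values passed the adjusted threshold.

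The general fat genes gave the measure of fat content in these comparisons. Under aJ1aJ2 the 17 general adipocyte genes had median log2 fold changes of 0.18 at 15 hours, 0.48 at 5 days and 0.54 at 7 days, with 0 called each time, beside medians of 0.47, 0.75 and 1.07 over the 9 thermogenic genes. The 7-day median of the 9 was 0.28 without aJ1aJ2 replicate 2, 0.43 with the muscle covariate and 0.48 with the adipocyte covariate. With 1 library left out the 15-hour median ranged from 0.25 (without RW replicate 3) to 0.86 (without RW replicate 2) and the 5-day median from 0.52 (without aJ1aJ2 replicate 1) to 1.31 (without RW replicate 3). The adipocyte medians were not recomputed in this way, so no difference between the lists is read from them. Over all genes tested the medians were -0.03, -0.06 and 0.01. Adipoq itself differed by 0.51 ± 0.28, 0.48 ± 0.37 and 0.48 ± 0.34. Under aN1aN2 at 15 hours the adipocyte median was 0.39 and the thermogenic median also 0.39, with 0 called in either list. The other thermogenic genes had medians of -0.06, 0.18 and 0.91 under aJ1aJ2, and Dio2 differed from RW by 0.45, -0.09 and 0.65, with none past the threshold.

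Ucp1 per Adipoq was tested in the 7 comparisons with an exact permutation test over libraries (two-sided, every split of 5 against 5, smallest possible p = 0.00794, adjusted over 7). Under aJ1aJ2 the mean log2 ratio was 0.23 ± 0.72 (SD, n = 5) at 15 hours against -0.68 ± 0.70 in RW, a difference of 0.91 (exact p = 0.0714, adjusted 0.222). At 7 days in the first set it was 1.58 ± 0.62 against 0.84 ± 0.65, a difference of 0.73 (exact p = 0.0952, adjusted 0.222), with all 5 treated libraries above the RW mean. At 5 days it was -0.37 ± 1.24 against -0.82 ± 0.91 (exact p = 0.524, adjusted 0.611). The aN1aN2 ratio at 15 hours was -1.22 ± 0.75, lower than under aJ1aJ2 by 1.46, with all 5 libraries below the aJ1aJ2 mean (exact p = 0.0238, adjusted 0.167). Against RW it differed by -0.54 at 15 hours and -0.15 at 5 days, and against aJ1aJ2 by -0.60 at 5 days (adjusted exact p between 0.486 and 0.857). None passed after adjustment.

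The change of each treatment effect with time was tested as an interaction. RW and aJ1aJ2 libraries carry a different series of sample IDs at each time, so time and ID series cannot be told apart here. The aN1aN2 libraries at 15 hours also differ in ID series from the RW libraries of that time. None of the 9 genes was called in the 4 contrasts, and each contrast had 1 gene with an unadjusted p below 0.05. The share of all genes at that unadjusted cut was not computed, so nothing is read from it. Ppargc1a came closest, with the aJ1aJ2 effect higher by 1.32 ± 0.35 at 5 days than at 15 hours (adjusted p = 0.0577, edgeR). Of all genes 0.981% were called in that contrast. In the others the shares were 0.300% (aJ1aJ2, 7 days minus 15 hours), 0.676% (aJ1aJ2, 7 days minus 5 days) and 3.14% (aN1aN2, 5 days minus 15 hours). For Adrb3 the aJ1aJ2 effect was lower by 1.37 ± 0.59 at 7 days than at 15 hours (adjusted p = 0.591).

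The order of the 10 group means differed by gene, and neighbours in it rarely stood apart. Of 81 neighbouring pairs of groups over the 9 genes, 3 did not overlap. These were aN1aN2aN3 below the next lowest group for Adrb3 and for Otop1, and aJ1aJ2 in the first 7-day set above the next highest for Kcnk3. Those for Adrb3 and Otop1 rest on values that chose the genes. The order also sets the second 7-day set beside groups with a larger mean share of Tg, so it is a description. Ucp1 ran from a mean of 56.2 ± 41.5 CPM in RW at 15 hours, its lowest, through 61.8 ± 83.7 CPM under aN1aN2aN3, to 653 ± 702 CPM under aJ1aJ2 in the first 7-day set. Within a group the coefficient of variation had a median of 70.4% for Ucp1, 99.9% for Elovl3, 101% for Cox7a1 and 88.3% for Cox8b. It was 32% for Kcnk3 and 18.2% for Ppargc1a, the steadiest of the 9. Ucp1 counts in a library ranged from 32 to 27854.

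Within groups, most of the genes varied with more than 1 of Ucp1, Adipoq and the muscle gene Ckm. Over the 40 libraries outside the second set, deviations from group means of log2 CPM were correlated, in a family of 26 relations with 100000 within-group permutations. Otop1 followed Ucp1 with r = 0.90 and rho = 0.86, and Cidea with r = 0.90 and rho = 0.90 (permutation p = 1e-05, the smallest these permutations can give, adjusted 3.71e-05 for r). Elovl3 had r = 0.77 with Ucp1 and rho = 0.65 (permutation, adjusted p = 6.5e-05 for r). Without the 2 libraries farthest from the median these became 0.86, 0.87 and 0.67. With Adipoq, Adrb3 gave r = 0.82 and rho = 0.78, Otop1 r = 0.80 and rho = 0.77, Cidea r = 0.75 and rho = 0.71, and Ucp1 r = 0.67 and rho = 0.64 (permutation, adjusted p at most 0.000286). Without the 2 farthest libraries they were 0.80, 0.73, 0.69 and 0.57.

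Cox7a1 and Cox8b had their highest correlations with Ckm. Their r was 0.95 and 0.91 and their rho 0.93 and 0.88 (permutation, adjusted p = 3.71e-05 for r and 4.33e-05 for rho), and both kept 0.94 and 0.88 without the 2 libraries farthest in Ckm. With Ucp1 their r was 0.47 and 0.52 (permutation, adjusted p = 0.00791 and 0.00397) and their rho 0.56 and 0.61 (adjusted p = 0.00182 and 0.000567). With Adipoq their r was 0.28 and 0.37 (adjusted p = 0.176 and 0.0682) and their rho 0.29 and 0.40 (adjusted p = 0.127 and 0.0364). On library totals with Tg left out and without TMM scaling, r turned to -0.15 and -0.04. Cidea and Ucp1 also passed with Ckm, at r = 0.55 and 0.38 and rho = 0.51 and 0.44 (permutation, adjusted p = 0.0018 and 0.0371 for r). On the totals without Tg and without TMM scaling their r was 0.31 and 0.18. Ppargc1a passed with none of these genes, at r = -0.22 with Adipoq, 0.23 with Ckm and -0.16 with Ucp1 (adjusted p = 0.304, 0.339 and 0.337). With Ckm its r turned to -0.47 on the totals without Tg and without TMM scaling. Kcnk3 gave r = 0.59 with Adipoq and 0.61 with Ucp1 (adjusted p = 0.000425 and 0.000975). Of the 26 relations 17 passed by r and 18 by rho. All points of a library share its depth and its share of Tg, so these relations describe libraries and not cells.

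**Figure D5:**
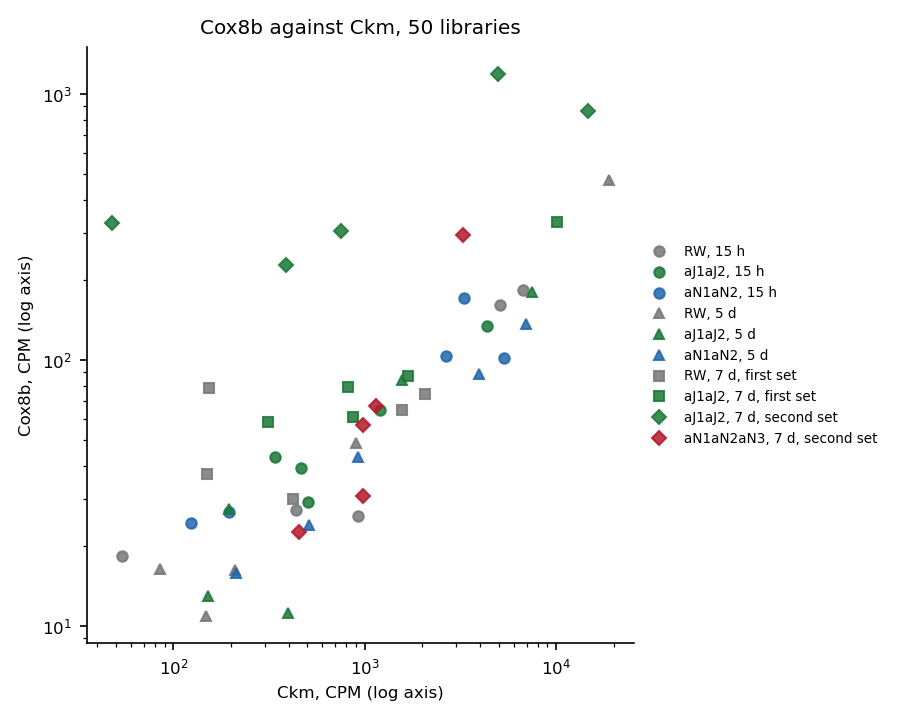
Cox8b against Ckm in CPM, both on log axes, 1 point per library; colours are treatments and shapes are times and sets. Cox8b climbs with Ckm in the 8 groups outside the second set (within-group r = 0.91). The aJ1aJ2 libraries of the second set (green diamonds) hold 228 CPM or more at any Ckm. Other cytochrome c oxidase genes also had a higher mean sum in the second set.

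In the second set the aJ1aJ2 libraries had more Cox8b and Cox7a1 per Ckm in mean than any other group. The other cytochrome c oxidase genes were also higher in that set. Their sum had a mean of 5168 CPM under aJ1aJ2 and 2424 CPM under aN1aN2aN3, against 992 to 1440 CPM in the 8 groups outside it. A higher level was thus not particular to Cox8b and Cox7a1. Under aJ1aJ2 of the second set, Ckm measured 387, 47.5, 747, 14586 and 4953 CPM, so replicate 2 combined little Ckm with 326 CPM of Cox8b. The log2 ratio of Cox8b to Ckm counts was -0.76, 2.78, -1.29, -4.07 and -2.06 there, and -3.45, -4.09, -4.09, -4.98 and -4.33 under aN1aN2aN3. The aN1aN2aN3 mean of -4.19 ± 0.55 lay among the 8 groups outside the set, whose means ran from -4.75 to -3.23, and the aJ1aJ2 mean was -1.08 ± 2.5. For Cox7a1 per Ckm the aJ1aJ2 mean was -2.13 ± 2.43 and the aN1aN2aN3 mean -5.43 ± 0.44, below the means of the 8 other groups, which ran from -5.08 to -4.26. Per length of transcript, the ratio of Cox8b to the widespread isoform Cox8a (FPKM) was 0.929 to 8.33 under aJ1aJ2 and 0.174 to 1.6 under aN1aN2aN3, with overlap.

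Outside the lists, the 10 genes most like Ucp1 were ranked by the same within-group Pearson r over 40 libraries among 15703 genes with a mean of at least 1 CPM. They were Poln (r = 0.89), Clstn3 (0.87), Gys2 (0.86), Cpn2 (0.85), Trim67 (0.83), Gm10032 (0.81), Aspg (0.79), Gpat4 (0.78), Aifm2 (0.77) and Sh2b2 (0.77). Clstn3, a calsyntenin with a form made in fat, measured a mean of 22 CPM under aJ1aJ2 and 5.46 CPM under aN1aN2aN3 in the second set, libraries that the ranking did not use. Gys2, a glycogen synthase, measured 8.09 and 0.979 CPM, and Trim67 4.04 and 0.715 CPM. Gpat4, of triglyceride synthesis, measured 107 and 78.6 CPM, and Aifm2, an oxidoreductase, 47.3 and 41.3 CPM. All 10 had lower means under aN1aN2aN3, with log2 differences from -0.23 for Aifm2 to -4.02 for Cpn2, whose own levels were under 1 CPM in both groups. The median over all genes tested was -0.07. Ucp1, to which they were matched, was itself chosen on this contrast, and general fat genes were lower in it. Lower means of genes that vary with Ucp1 are thus a description and no independent support.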

How the data were processed

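Gene expression was measured in thyroid tissue by single-end RNA sequencing of total RNA. Whole-number counts without normalization are given in 1 table that the authors deposited. A companion table the authors deposited gives FPKM, which divides by gene length and depth. The submitters' processing notes name GSNAP and limma without version or role. The counting program, genome build, annotation and strand setting were not given in the sources used here. Every column was matched to a library by the ID in its title. Symbols were matched by Ensembl ID for 52403 of 52636 genes, and overlapping genes were looked up in GENCODE M21. FPKM library factors differ between blocks of libraries, so FPKM was compared only within a library or a comparison.

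Counts were tested with edgeR 4.0.16 in R 4.3.3 (TMM, filterByExpr set to 10 counts and 15 in total, robust glmQLFit, two-sided glmQLFTest), with Benjamini-Hochberg adjustment over all genes and a threshold of 0.05. The 3 groups at 15 hours were fitted together, likewise at 5 days, and each 7-day set alone. DESeq2 1.42.0 and limma 3.58.1 (trend, log2 of FPKM plus 0.1) were alternatives. Ratios used counts plus 0.5. Exact permutation tests used SciPy 1.17.1. On simulated counts with 200 changed genes the 4 fits recovered 190 to 192. Recovery at the spread and size of change of the 9 members was not tested. Of 100 replicate pairs none agreed within sampling noise (smallest chi-square per degree of freedom 15.6). The members and gene lists were chosen with earlier results of these data known. Named genes are the 9 members, fixed fat, muscle, thyroid and oxidase genes, up to 4 called genes of each list with the largest change, and the 10 genes most like Ucp1. Lipe, Pnpla2 and Plin4 were named after their values were seen.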

Additional observations from a re-analysis of the deposited data

Results flagged for a closer look

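Within each group of 5 libraries the highest and lowest values of log2 CPM were compared with the rest by Dixon's ratio (critical value 0.71). Of 90 groups tested over the 9 genes, 10 had such a library, and chance gives about 5% of groups. In the first 7-day set, aJ1aJ2 replicate 2 stood above the other 4 in 5 genes: Ucp1 at 1901 CPM, Otop1 at 79.3 CPM, Cidea at 333 CPM, Elovl3 at 51.6 CPM and Kcnk3 at 184 CPM. It also stood above them in Cox8b at 330 CPM. The same library had the highest Adipoq (326 CPM) and Ckm (10066 CPM) of its group. In RW of that set, replicate 4 was low in Otop1, at 10.0 CPM. In the second set, aJ1aJ2 replicate 4 was high in Adrb3, at 34.9 CPM. At 5 days, aN1aN2 replicate 1 was high in Ppargc1a, at 117 CPM, and the muscle-rich RW replicate 3 was low in Kcnk3, at 8.94 CPM.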

How the results depend on the processing

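Each value was recomputed with RLE size factors, DESeq2, no low-count filter, the 2 groups of a comparison alone (at 15 hours and 5 days), Tg left out of library sizes, muscle or adipocyte sums as covariates, the replicate number as a block, limma on FPKM, and each library left out in turn. The count of members called stayed at 0 in all of the 7 tested comparisons except that limma on FPKM called 1 for aN1aN2 against RW at 15 hours. That FPKM fit called 2249 of 18513 genes, 2116 of them lower. Leaving out a library gave 0 to 1 for aJ1aJ2 against RW at 15 hours and at 5 days. In the second set, whose contrast chose the genes, the count is a description and nothing is read from it. There the count of 6 became 7 with DESeq2 and with limma on FPKM, both adding Ucp1. It became 3 without the low-count filter, 0 with the adipocyte covariate and 3 without the 2 aJ1aJ2 libraries richest in muscle transcripts (an alternative chosen after seeing the data). It became 3 to 6 with 1 library left out; the libraries that gave 3 were aJ1aJ2 replicate 4 and aN1aN2aN3 replicates 2 to 5. With the replicate number as a block it was 4, and 0 in each of the other 7 comparisons; numbers are not known to pair samples, since same-numbered libraries correlated from -0.65 to 0.76, and in no pair of groups did every library correlate best with its own number.

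Directions turned as follows, on the log2 scale. In the second set Ucp1 became 3.13 with the adipocyte covariate. Ppargc1a ranged from -0.0716 to 0.115 with 1 library left out, and was -0.00424 without the 2 muscle-rich libraries. For aJ1aJ2 against RW at 15 hours, the block gave 0.24 for Cox7a1 and 0.18 for Cox8b, FPKM gave 0.0595 for Cox8b, and leaving out a library gave -1.31 to 0.0664 and -0.87 to 0.12. At 5 days FPKM gave 0.0652 for Cox7a1, and leaving out a library gave -2.19 to 1.61 for Cox7a1, -1.76 to 1.45 for Cox8b, -0.0458 to 0.59 for Adrb3 and -0.11 to 0.82 for Otop1. For aN1aN2 against RW at 15 hours, Ucp1 became -0.53 with the adipocyte covariate and -0.000319 on FPKM, and -0.10 to 0.62 with a library left out. At 5 days it ranged from -0.15 to 1.22, Elovl3 from -0.17 to 1.84, and Ucp1 against aJ1aJ2 from -1.72 to 0.32. Ucp1 per Adipoq for aN1aN2 against RW became 0.000353 at 15 hours with Plin1 as the reference, and -0.64 to 0.22 at 5 days with a library left out. Within-group correlations were recomputed on library totals with Tg left out and without TMM scaling, so these 2 changes cannot be told apart. With Adipoq they turned to -0.15 for Cox7a1 and -0.0355 for Cox8b. With Ckm they turned to -0.144 for Adrb3, -0.125 for Otop1, -0.0308 for Elovl3 and -0.466 for Ppargc1a. Ppargc1a with Ckm was -0.0293 on the main scale without its 2 farthest libraries. The causes were not tested. DESeq2 called more genes overall where edgeR called 0: 463 and 74 for aN1aN2 at 5 days against RW and aJ1aJ2, and 476 for aJ1aJ2 at 7 days, where edgeR had 1848, 778 and 1968 at an unadjusted p below 0.05.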
